A study of Mus musculus with 12 samples.

Results

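A group of 10 genes of the unfolded protein response, the set of transcripts that cells adjust when proteins misfold in the endoplasmic reticulum (ER), were followed in allergic mouse ears. Chosen by name, they were Hspa5, Hsp90b1, Xbp1, Atf4, Ddit3, Herpud1, Dnajb9, Sdf2l1, Trib3 and Chac1, and every probe set annotated to one of them was kept. That gave 21 of the 45101 probe sets on the array and 10 of the 18193 genes with a probe set of their own. All 10 genes and 20 of the 21 probe sets passed the filter on low values (3 or more of the 12 arrays with an intensity of 16 or above). The exception, the Atf4 probe set 1439258_at, ranged from 1.12 to 6.15.

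The tissue was the whole ear of 6 female mice aged 8 to 10 weeks, measured on 12 one-colour Affymetrix arrays. Both ears of each mouse were used, so the 4 groups hold 3 arrays each. KO DNFB ears were the right ears of mice lacking both cannabinoid receptors (Cnr1-/-/Cnr2-/-), painted with the contact allergen dinitrofluorobenzene (DNFB), and KO control ears were the untreated left ears of those mice. WT DNFB ears and WT control ears came in the same way from mice labelled C57BL/6J. Per the labels' protocols, the mice were sensitized on the abdomen with 0.2% DNFB (50 µl) and challenged on day 5 with 0.3% DNFB (10 µl). Ears were taken 48 h after a challenge that the labels call the second. A control ear is therefore the untreated ear of a mouse treated elsewhere, not the ear of an unsensitized mouse. The labels name no promoter or Cre that would limit the deletions to one cell type, and the background strain of the KO line is not given in the sources used here.

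As background, unfolded protein in the ER lumen is sensed by the membrane proteins IRE1, PERK and ATF6. IRE1 splices the Xbp1 transcript into the form that encodes an active transcription factor, PERK slows translation and thereby raises ATF4 protein, and ATF6 is cut to release a transcription factor. Much of this signalling is set by splicing, translation and protein cleavage, which transcript levels on these arrays do not show. Cells that secrete much protein, such as plasma cells, are known to depend on the pathway.

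The promoters of 4 of the genes are printed because their responses went in different directions and because each holds a known stress element. Hspa5 and Hsp90b1 rose and hold the ER stress element (ERSE, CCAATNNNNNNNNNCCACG). Herpud1 fell and holds ERSE-II (ATTGGNCCACG). Chac1 rose and holds the composite C/EBP-ATF element (TGATGNAA), to which ATF4 and CHOP are known to bind. The sequences are from RefSeq on GRCm38.p6, cover the 250 bases before each gene's start, and run 5′ to 3′ on the gene's strand. Capitals mark the motif matches, on either strand.
Hspa5, chr2:34771840-34772089, plus strand: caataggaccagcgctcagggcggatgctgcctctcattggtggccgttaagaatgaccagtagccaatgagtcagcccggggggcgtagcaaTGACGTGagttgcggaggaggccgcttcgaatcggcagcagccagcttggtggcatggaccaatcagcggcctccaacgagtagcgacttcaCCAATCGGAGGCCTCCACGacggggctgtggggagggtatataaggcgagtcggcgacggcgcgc
Hsp90b1, chr10:86705445-86705694, minus strand: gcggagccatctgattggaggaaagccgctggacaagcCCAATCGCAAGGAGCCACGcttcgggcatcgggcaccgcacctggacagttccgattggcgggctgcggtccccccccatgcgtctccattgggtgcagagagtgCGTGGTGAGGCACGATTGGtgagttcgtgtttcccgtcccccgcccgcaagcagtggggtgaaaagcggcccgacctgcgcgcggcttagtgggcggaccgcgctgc
Herpud1, chr8:94386179-94386428, plus strand: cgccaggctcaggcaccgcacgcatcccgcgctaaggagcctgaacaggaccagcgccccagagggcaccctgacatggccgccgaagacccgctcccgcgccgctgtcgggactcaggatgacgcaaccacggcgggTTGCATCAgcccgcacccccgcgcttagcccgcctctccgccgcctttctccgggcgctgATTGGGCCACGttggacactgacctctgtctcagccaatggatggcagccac
Chac1, chr2:119350992-119351241, plus strand: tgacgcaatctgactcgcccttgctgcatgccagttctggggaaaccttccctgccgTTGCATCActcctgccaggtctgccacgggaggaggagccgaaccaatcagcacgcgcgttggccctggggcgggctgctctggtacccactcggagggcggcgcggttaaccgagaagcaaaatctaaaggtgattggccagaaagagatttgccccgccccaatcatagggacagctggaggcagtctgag

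In Hspa5 the ERSE lay 65 to 47 bases before the start, and the other capital run is a UPRE core (TGACGTG) at 157 to 151 bases before it. Hsp90b1 held 2 ERSE matches, at 212 to 194 bases and, on the other strand, at 107 to 89 bases before the start. The ERSE-II of Herpud1 lay 52 to 42 bases before the start, and Herpud1 also held a C/EBP-ATF element at 112 to 105 bases. The C/EBP-ATF element of Chac1 lay 193 to 186 bases before the start. All 10 genes matched a promoter in the RefSeq table, whose windows reach 50 bases past the start, and in that window Trib3 held the C/EBP-ATF element 15 to 22 bases after its start. Both strands were searched and no matches overlapped. The windows of Sdf2l1 and Atf4, which also rose, held none of these elements, nor did those of Xbp1, Ddit3 and Dnajb9. Among 32851 promoters of the same length, 0.119% held the ERSE, 0.0365% ERSE-II, 2.01% the UPRE core and 3.97% the C/EBP-ATF element. A match describes the letters of the window and does not show that a factor binds there.

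In DNFB ears of both genotypes 5 of the 10 genes were higher than in control ears, and they were the same 5: Hspa5, Hsp90b1, Atf4, Sdf2l1 and Chac1. In KO ears 2 genes were lower, Xbp1 and Herpud1, and in WT ears 2 were lower, Herpud1 and Trib3. A gene counts as higher or lower here when limma's adjusted p was below 0.05, adjusted by Benjamini-Hochberg over all 29460 probe sets tested. Each gene is represented by its tested probe set with the highest mean. Of all 13383 genes tested, 21.2% were higher and 24.6% lower in the KO response, and 19.0% were higher and 24.0% lower in the WT response. The median log2 fold change of the 10 genes was 0.21 in KO and 0.25 in WT ears, beside -0.06 and -0.08 over all genes tested. When each array was centred on its own median, the median over all genes became 0.01 in KO and 0.06 in WT ears. The KO split changed to 3045 genes higher and 2631 lower, against 2837 higher and 3286 lower as deposited, and the WT split to 3214 higher and 2064 lower, against 2545 higher and 3216 lower.

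**Figure D1:**
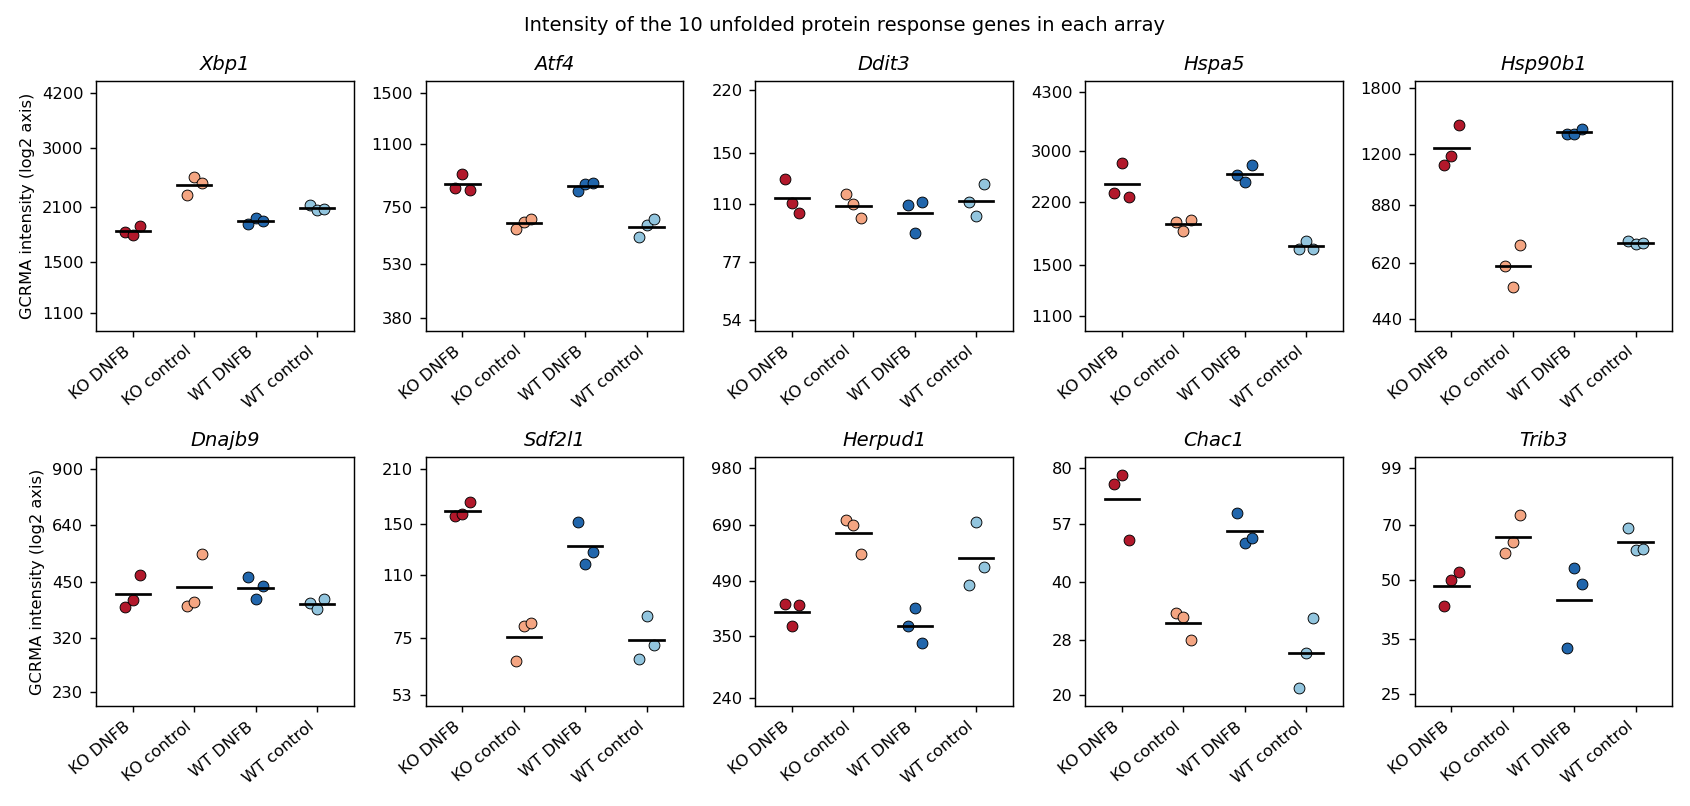
GCRMA intensity (log2 axis) of the probe set that stands for each of the 10 genes, one point per array and a bar at the mean of the log2 values, in KO DNFB, KO control, WT DNFB and WT control ears. Hsp90b1, Sdf2l1 and Chac1 sit higher in the DNFB ears of both genotypes, Herpud1 lower, and Ddit3 and Dnajb9 overlap across all groups.

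The make-up of the ears differed between the conditions as well. Neutrophil markers (7 genes, summed intensity) ranged from 7648 to 12380 in KO DNFB ears and 90.9 to 713 in KO control ears, and from 9391 to 12860 in WT DNFB ears and 123 to 301 in WT control ears. Most of each DNFB sum was S100a8 and S100a9, which averaged 4717 and 4652 in KO and 5820 and 5194 in WT DNFB ears. Cxcr2, Csf3r, Fpr2, Clec4e and Mmp8 averaged between 24.9 and 258 in DNFB ears, so the sum says little about them. Of those 7 neutrophil markers 6 rose in KO and 7 in WT ears, as did 8 of 9 macrophage markers in each, 5 of 9 T and NK cell markers in each, and all 8 tested markers of hyperproliferative epidermis in each. Cxcr2, Fpr2, Clec4e, Mmp8, Gzma, Gzmb, Cd8b1, Sprr2f and Defb3 stayed below 16 in every control ear. They passed the filter on low values only through the DNFB ears, so their rises are counted but lend no support of their own. Sebaceous gland markers fell (7 of 7 in KO, 6 of 7 in WT ears), as did muscle (7 of 8 in each), cartilage (5 of 7 in KO, 4 of 7 in WT) and fibroblast markers (4 of 8 in KO, 5 of 8 in WT). Keratinocyte markers gave 4 higher and 2 lower of 9 in KO ears and 3 higher and 2 lower in WT ears. Beside each marker count stand the shares of all genes tested. They were 21.2% higher and 24.6% lower in KO, and 19.0% and 24.0% in WT ears. The list of plasma and B cell markers, cells with much ER, summed to 2282 to 2466 in KO DNFB ears and 1673 to 1947 in KO control ears, and to 2444 to 2618 in WT DNFB ears and 1729 to 1967 in WT control ears. Most of each sum was Sdc1, which keratinocytes also express and which averaged 1751 in KO DNFB and 1232 in KO control ears, and 1940 in WT DNFB and 1289 in WT control ears. Mzb1, Tnfrsf17 and Cd79b averaged between 7.99 and 25.9 over the 4 groups. In that list 4 of 7 tested genes rose and 1 fell in KO, 3 rose and 1 fell in WT ears, and Cd79a, Ms4a1 and Pou2af1 stayed below 16 on every array. Mzb1 and Cd79b, too, passed the filter only through the DNFB ears. In whole tissue, fewer cells of a type and less RNA per cell cannot be told apart, and the part of these markers in the results below was not tested.

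Arrays of the same group correlated at 0.957 to 0.971 across probe sets, and arrays of different groups at 0.868 to 0.966. For Actb, the 3′ probe set over the 5′ one, a measure of RNA integrity, averaged on the log2 scale 0.42 in KO DNFB, 0.48 in KO control, 0.52 in WT DNFB and 0.66 in WT control ears. The same measure for Gapdh ranged from -0.39 to -0.29 in KO DNFB and from -0.43 to -0.32 in KO control ears. In WT ears it ranged from -0.36 to -0.32 after DNFB and from -0.47 to -0.31 in controls, so for Gapdh the groups overlapped. The Cnr1 and Cnr2 probe sets were dim in all groups (4.88 to 39.4) and their position relative to the deletions is not given, so they check nothing about the genotype. Hybridization times in the instrument records place the arrays in 3 runs. Run 1 held 1 WT DNFB and 3 WT control ears, run 2 held 2 WT DNFB and 2 KO control ears, and run 3 held 3 KO DNFB ears and 1 KO control ear.

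Among the ER chaperones, Hsp90b1 and Hspa5 rose in both genotypes. Hsp90b1 (chr10:86690841-86705444), which encodes the ER chaperone GRP94, had 1124, 1192 and 1441 in KO DNFB ears, against 606, 533 and 690.0 in KO control ears. In WT it had 1363, 1356 and 1401 in DNFB ears, against 707, 693 and 698 in control ears. In each genotype all 3 DNFB ears lay far above all 3 control ears, and the KO arrays were more spread out than the WT arrays. The log2 fold change was 1.04 ± 0.119 (SE, limma adjusted p = 0.000104) in KO and 0.97 ± 0.119 (adjusted p = 0.000176) in WT ears, near a doubling on the intensity scale (2.05-fold and 1.97-fold). The other Hsp90b1 probe set, 1438040_a_at, rose by 0.78 in KO and 0.79 in WT ears on the log2 scale (adjusted p = 0.00224 and 0.00217).

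Hspa5 (chr2:34772090-34776529), the gene of BiP, the main chaperone of the ER lumen and the protein that holds the sensors inactive, had intensities of 2333, 2803 and 2269 in KO DNFB ears, against 1955, 1840 and 1979 in KO control ears. In WT ears Hspa5 had 2603, 2490 and 2765 after DNFB, against 1651, 1731 and 1656 in control ears. The groups did not overlap in either genotype, and among the KO mice the gap between the ears was largest in mouse 2. The rise was 0.35 ± 0.0993 on the log2 scale in KO ears (limma adjusted p = 0.0176) and 0.64 ± 0.0993 in WT ears (adjusted p = 0.000757). The KO call was lost without KO DNFB array 2 (0.26, adjusted p = 0.0622) and without KO control array 2 (adjusted p = 0.0574). It was also lost with mouse as a block (adjusted p = 0.0627), with hybridization run as a block (adjusted p = 0.205), after quantile normalization (adjusted p = 0.142) and with only the KO arrays in the fit (adjusted p = 0.0823), within a range of 0.00192 to 0.205 over 17 alternatives. Over its 17 alternatives the WT rise of Hspa5 stayed between 0.45 and 0.78 with adjusted p up to 0.0268. The probe set 1427464_s_at rose in both genotypes (0.60 in KO, 0.78 in WT). The third, 1447824_x_at, whose suffix marks probes that can cross-hybridize, had 0.23 in KO and 0.32 in WT ears and did not pass (adjusted p = 0.17 and 0.0648).

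Sdf2l1 (chr16:17130138-17132383), which encodes an ER protein that works with BiP and its co-chaperones, had 158, 160 and 172 in KO DNFB ears, against 65.0, 80.9 and 82.0 in KO control ears. In WT the values were 152, 118 and 127 in DNFB ears, against 66.0, 85.5 and 71.8 in control ears. Every DNFB ear was above every control ear of its genotype, and every KO DNFB ear was also above every WT DNFB ear. The log2 rise was 1.11 ± 0.14 in KO ears (limma adjusted p = 0.000185) and 0.83 ± 0.14 in WT ears (adjusted p = 0.00126).

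Dnajb9 (chr12:44205897-44210068), the co-chaperone ERdj4, did not pass in either genotype. It had 386, 405 and 470.0 in KO DNFB ears, against 388, 399 and 534 in KO control ears, and 464, 405 and 441 in WT DNFB ears, against 397, 382 and 407 in WT control ears. DNFB and control ears overlapped in both genotypes, and KO control array 3 was the highest of all 12. The log2 difference was -0.06 in KO ears (95% interval -0.36 to 0.24) and 0.14 in WT ears (-0.16 to 0.44). The KO value turned to 0.09 without KO control array 3 and to 0.01 with arrays centred on their medians.

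Herpud1 (chr8:94386429-94395371), which encodes an ER membrane protein of the degradation machinery and is a known target of the pathway, fell in both genotypes. Its probe set 1448185_at had 427, 374 and 424 in KO DNFB ears, against 712, 690.0 and 579 in KO control ears. In WT it had 374, 417 and 336 in DNFB ears, against 480.0, 705 and 536 in control ears. All DNFB ears were below all control ears of the same genotype, although the WT control ears ranged widely. Herpud1 fell by 0.69 on the log2 scale in KO ears (SE 0.154, limma adjusted p = 0.00554) and by 0.60 in WT ears (SE 0.154, adjusted p = 0.0121).

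The second Herpud1 probe set, 1435626_a_at, repeated the fall with less spread. It had 311, 302 and 245 in KO DNFB ears, against 456, 542 and 472 in KO control ears, and 198, 227 and 223 in WT DNFB ears, against 362, 401 and 361 in WT control ears. This probe set fell by 0.78 in KO and by 0.80 in WT ears on the log2 scale (adjusted p = 0.000598 and 0.000618). For 1448185_at the calls were lost with hybridization run as a block (adjusted p = 0.159 in KO, 0.103 in WT), and the WT call also with arrays centred on their medians (adjusted p = 0.0585). For the gene, over 17 alternatives per genotype that include taking the other probe set, the adjusted p ranged from 0.000357 to 0.159 in KO and from 0.000618 to 0.103 in WT ears.

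Among the transcription factors Atf4 rose in both genotypes, Xbp1 fell in KO ears, and Ddit3 did not pass. Atf4 (chr15:80255184-80257545) encodes the factor whose translation PERK and related kinases raise. Atf4 had 841, 914 and 831 in KO DNFB ears, against 653, 685 and 694 in KO control ears, and 824, 860 and 865 in WT DNFB ears, against 622, 672 and 695 in WT control ears. In both genotypes the DNFB ears lay above the control ears with a clear gap. The log2 rise was 0.35 ± 0.0835 in KO ears (limma adjusted p = 0.00816) and 0.36 ± 0.0835 in WT ears (adjusted p = 0.00719).

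The Atf4 calls were lost with hybridization run as a block (adjusted p = 0.135 in KO, 0.129 in WT), and the KO call also with only the KO arrays in the fit (adjusted p = 0.0514). Over 17 alternatives, adjusted p for Atf4 ranged from 0.00132 to 0.37 in KO and from 0.00107 to 0.129 in WT ears. The highest KO value belongs to the dimmer probe set 1438992_x_at, whose suffix marks probes that can cross-hybridize. That probe set had a difference of 0.20 in KO ears, where its groups overlapped, and rose by 0.48 in WT ears (adjusted p = 0.37 and 0.0431).

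Xbp1 (chr11:5520641-5525993) had 1798, 1768 and 1867 in KO DNFB ears, against 2253, 2519 and 2421 in KO control ears, at probe set 1437223_s_at. In WT ears it had 1893, 1956 and 1920 after DNFB, against 2121, 2059 and 2068 in control ears. The DNFB ears were the lower ones in both genotypes and the groups did not overlap, but the WT gap was small. Xbp1 fell by 0.40 on the log2 scale in KO ears (SE 0.0782, limma adjusted p = 0.00248), while the WT difference was -0.11 ± 0.0782 (adjusted p = 0.274).

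The other probe sets of Xbp1 did not all tell the same story. The probe sets 1420886_a_at and 1420011_s_at fell in KO ears by 0.39 and by 0.40 and had -0.06 and -0.13 in WT ears, where they did not pass (adjusted p = 0.681 and 0.327). The dim probe set 1420012_at had 66.6, 66.9 and 59.98 in KO DNFB ears, against 70.1, 76.6 and 54.0 in KO control ears, and 72.2, 66.1 and 78.2 in WT DNFB ears, against 43.7, 62.4 and 42.0 in WT control ears. It overlapped in KO ears (-0.04, adjusted p = 0.881) and rose in WT ears by 0.57 (adjusted p = 0.026). The WT difference at 1437223_s_at became -0.30 after quantile normalization (adjusted p = 0.0109) and 0.03 with arrays centred on their medians, over a range of adjusted p from 0.0109 to 0.866 among 17 alternatives. None of these probe sets is annotated as telling spliced from unspliced Xbp1 in the sources used here.

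Ddit3 (chr10:127290793-127296291), the gene of the pro-apoptotic factor CHOP that prolonged ER stress is known to induce, showed no change past the threshold. It had 128, 111 and 104 in KO DNFB ears, against 117, 110 and 101 in KO control ears, and 109, 92.1 and 111 in WT DNFB ears, against 111, 102 and 124 in WT control ears. The 4 groups overlapped. The log2 difference was 0.06 in KO ears (95% interval -0.21 to 0.34, limma adjusted p = 0.712) and -0.11 in WT ears (-0.38 to 0.16, adjusted p = 0.513). The dim second probe set, 1443897_at, had -0.18 in KO and -0.08 in WT ears with intervals reaching from -0.87 to 0.61.

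Of the targets of ATF4 and CHOP among the 10 genes, Chac1 rose in both genotypes whereas Trib3 fell in WT ears by its main probe set and did not pass in KO ears. Chac1 (chr2:119351242-119354326), which encodes an enzyme that breaks down glutathione, had 72.8, 76.8 and 51.7 in KO DNFB ears, against 33.0, 32.3 and 28.1 in KO control ears. In WT ears it had 60.8, 50.8 and 52.2 after DNFB, against 20.8, 25.8 and 32.0 in control ears. No control ear reached the lowest DNFB ear in either genotype. The log2 rise was 1.09 ± 0.186 in KO (limma adjusted p = 0.00117) and 1.08 ± 0.186 in WT ears (adjusted p = 0.00143), or 2.13-fold and 2.11-fold.

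Trib3 (chr2:152337425-152344060), which encodes a pseudokinase that is known to be induced by CHOP and to restrain it, had 42.7, 50.1 and 52.7 in KO DNFB ears, against 59.1, 63.2 and 74.4 in KO control ears, at probe set 1426065_a_at. In WT it had 33.0, 53.8 and 49.0 in DNFB ears, against 68.9, 60.3 and 60.5 in control ears. The DNFB ears were the lower ones without overlap in both genotypes, with WT DNFB array 1 the lowest of all. The log2 difference was -0.44 ± 0.179 in KO ears (limma adjusted p = 0.0792), and Trib3 fell by 0.51 in WT ears (SE 0.179, adjusted p = 0.0459).

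The WT call of Trib3 was held by few settings. It was kept in 4 of 16 alternatives and lost in 10, among them mouse as a block (adjusted p = 0.0775) and leaving out WT DNFB array 1, where the difference was -0.30 (adjusted p = 0.138). Leaving out WT control array 1, 2 or 3 or WT DNFB array 3 ended it as well (adjusted p = 0.132, 0.0792, 0.0797 and 0.0567). In the remaining 2 alternatives the direction turned. There the second probe set, 1456225_x_at, whose suffix marks probes that can cross-hybridize, went the other way. It had 49.6, 50.4 and 40.5 in KO DNFB ears, against 64.8, 48.6 and 67.7 in KO control ears, and 43.5, 57.1 and 63.5 in WT DNFB ears, against 35.02, 39.4 and 37.9 in WT control ears. At that probe set the WT groups did not overlap and the rise was 0.53 (adjusted p = 0.0328), while KO ears overlapped at -0.36 (adjusted p = 0.124). In KO ears the fall of 1426065_a_at passed with hybridization run as a block (-0.62, adjusted p = 0.0316). Adjusted p over the 16 alternatives ranged from 0.0316 to 0.215 in KO and from 0.00716 to 0.961 in WT ears.

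**Figure D2:**
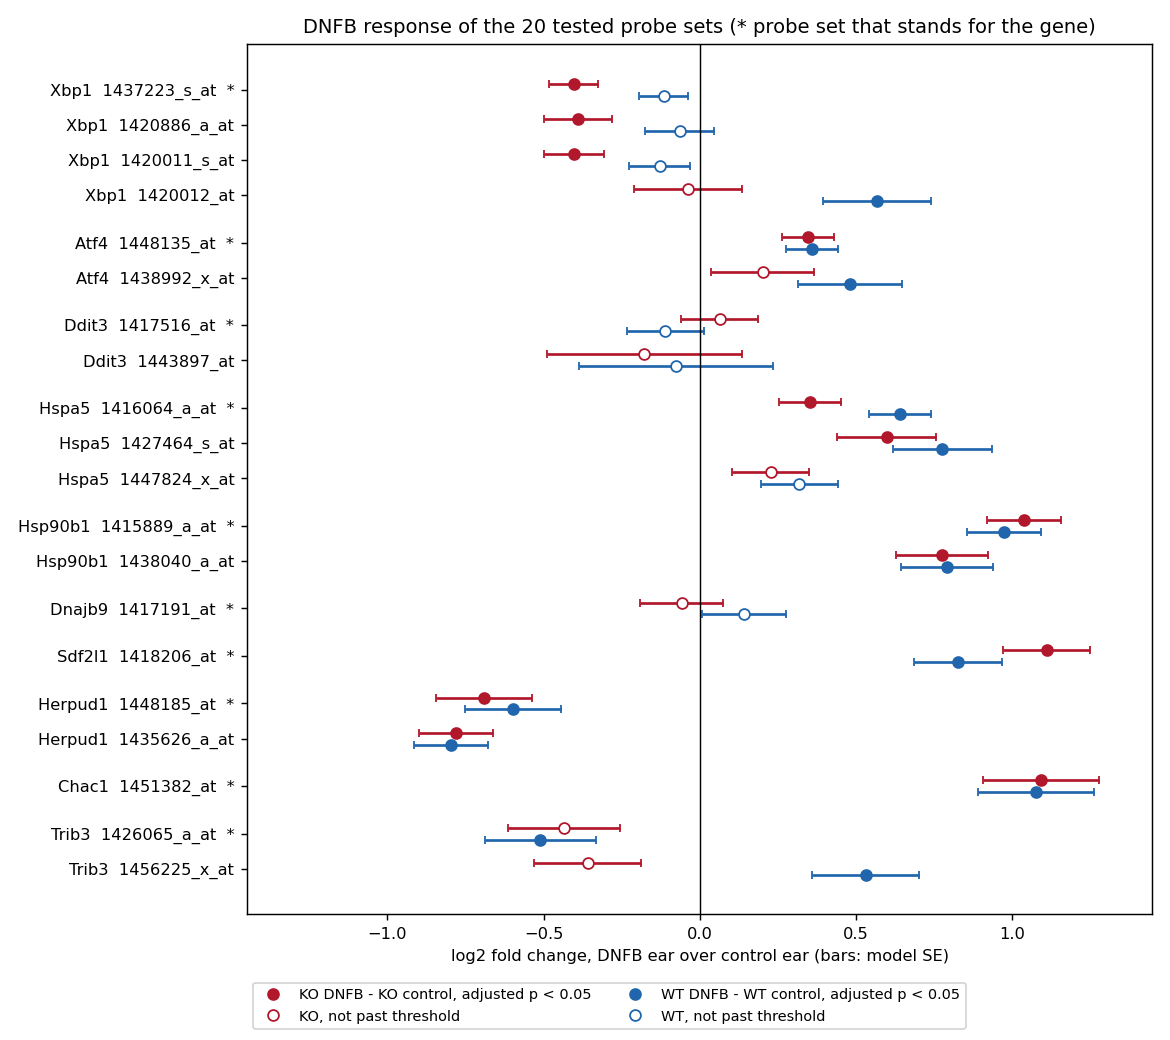
Log2 fold change of DNFB over control ears for the 20 tested probe sets of the 10 genes, KO in red and WT in blue, with bars of the model's SE and filled points where adjusted p was below 0.05. Both Hsp90b1 and both Herpud1 probe sets agree in sign, whereas Xbp1 1420012_at and Trib3 1456225_x_at lie at 0.57 and 0.53 in WT ears, opposite to the brighter probe sets.

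Arrays of one run can be compared without the run entering the difference. Within run 1 (1 WT DNFB and 3 WT control ears) the WT log2 differences were 0.96 for Hsp90b1, 0.63 for Hspa5, 1.04 for Sdf2l1, 1.24 for Chac1 and 0.32 for Atf4. Within run 3 (3 KO DNFB ears and 1 KO control ear) the KO differences were 0.85 for Hsp90b1, 0.31 for Hspa5, 0.99 for Sdf2l1, 1.24 for Chac1 and 0.31 for Atf4. The genes that were lower gave -0.51 in KO and -0.60 in WT ears for Herpud1, -0.42 and -0.14 for Xbp1, and -0.62 and -0.93 for Trib3. Ddit3 gave 0.17 and -0.03, and Dnajb9 gave -0.35 and 0.23, in KO and WT ears. Each of these rests on a single array on one side and has no test of its own.

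Between the genotypes, none of the 10 genes passed limma's threshold. No run held both KO DNFB and WT DNFB ears, or both KO control and WT control ears. Each difference between KO and WT ears of one treatment is therefore also one between runs, and the 2 cannot be told apart directly. In DNFB ears 0 of 10 differed between KO and WT, where 0.0672% of all genes did. In control ears 0 of 10 differed, where 0.149% of all genes did. The KO response minus the WT response also gave 0 of 10, where 0.00747% of all genes passed. In each of these comparisons 1 of the 10 genes had an unadjusted p below 0.05, and eBayes with trend and robust settings also called 0. The share of all genes at that unadjusted p is not given here.

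The intervals show how large a difference these arrays leave room for. Over the 10 genes, the 95% intervals of KO minus WT ran from -0.41 to 0.70 on the log2 scale in DNFB ears, from -0.47 to 0.68 in control ears, and from -0.62 to 0.72 for the difference of the responses. For Atf4 they were narrow, at -0.27 to 0.25 for the difference of the responses. For Hsp90b1 that interval ran from -0.31 to 0.44 and for Chac1 from -0.57 to 0.60, so differences within those bounds were not resolved with 3 mice per genotype. The intervals take no account of the runs.

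Sdf2l1 was the gene with the small unadjusted p in DNFB ears. Its DNFB ears were 0.31 higher in KO than in WT (adjusted p = 0.531), without overlap. Xbp1 was that gene in the other comparisons. In control ears Xbp1 was 0.20 higher in KO than in WT (adjusted p = 0.365), again without overlap, and its KO response minus its WT response was -0.29 ± 0.111 (limma adjusted p = 0.77, 95% interval -0.53 to -0.04). Per mouse, Xbp1 in the DNFB ear minus the control ear was -0.33, -0.51 and -0.37 in KO and -0.16, -0.07 and -0.11 in WT mice, so the genotypes did not overlap. Hspa5 gave 0.25, 0.61 and 0.20 in KO and 0.66, 0.52 and 0.74 in WT mice, which do overlap, with a difference of -0.29 ± 0.14 (adjusted p = 0.817).

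Some genotype gaps appeared in a single probe set. Herpud1 1435626_a_at was higher in every KO than in every WT array of the same treatment, by 0.40 in DNFB ears (limma adjusted p = 0.363) and 0.38 in control ears (adjusted p = 0.277). The brighter Herpud1 probe set gave 0.12 and 0.22 with overlapping groups. Trib3 1456225_x_at was 0.68 higher in KO than in WT control ears without overlap (adjusted p = 0.207), and its difference of responses was -0.89 (adjusted p = 0.628), whereas the brighter Trib3 probe set gave 0.05 and 0.07. None of these passed the threshold, and the suffix of that Trib3 probe set marks probes that can cross-hybridize.

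**Figure D3:**
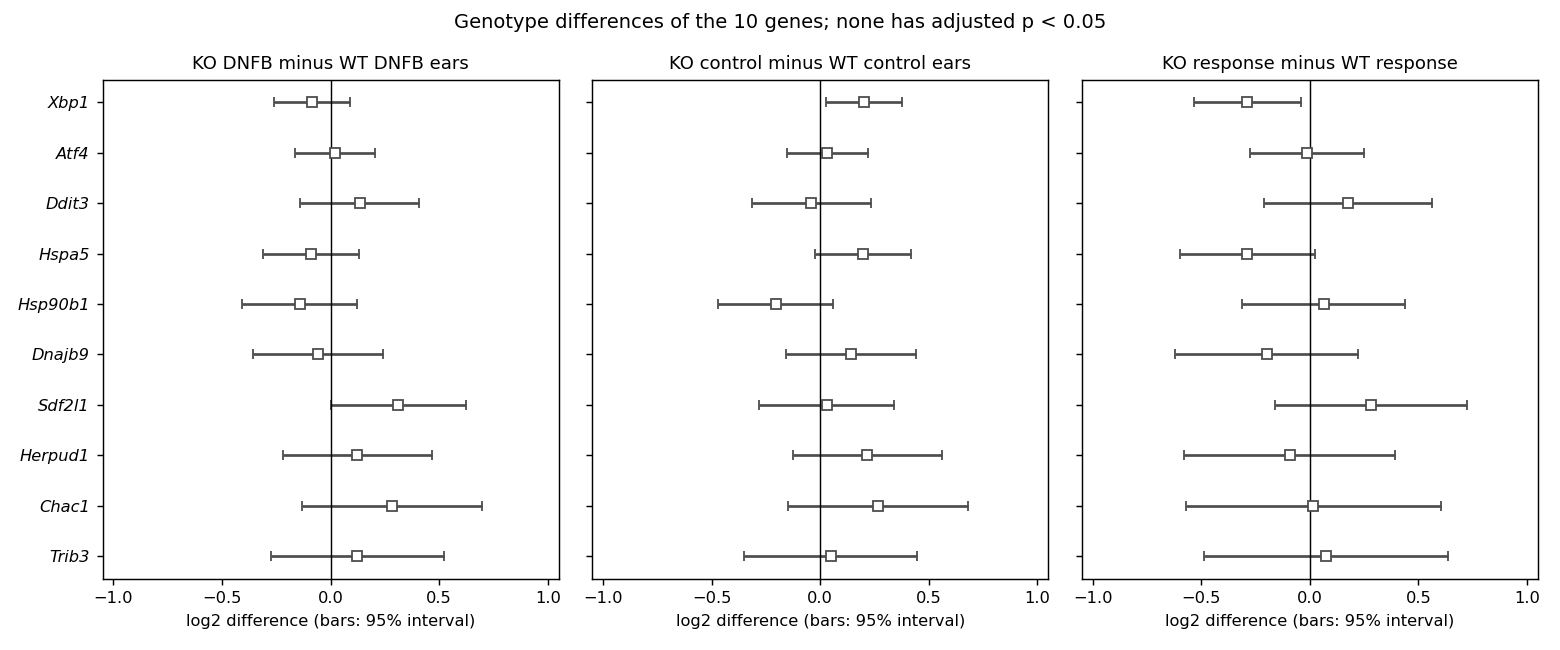
Log2 difference between genotypes for the 10 genes in DNFB ears (KO minus WT), in control ears (KO minus WT) and in the response (KO response minus WT response), with 95% intervals. No gene passed the adjusted threshold, and the interval of the Xbp1 response difference runs from -0.53 to -0.04.

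The wider pathway was read through 6 lists that hold none of the 10 genes. Of 18 ER chaperones and folding enzymes, 11 rose in KO and 9 in WT ears, with median log2 fold changes of 0.45 and 0.43. Over all genes tested, 21.2% rose in KO and 19.0% in WT ears. Manf, a secreted ER stress protein, averaged 825 in KO DNFB and 507 in KO control ears (1.63-fold, limma adjusted p = 0.000436), and 813 in WT DNFB and 486 in WT control ears (1.67-fold, adjusted p = 0.000372). Calr, the lectin chaperone calreticulin, averaged 2269 in KO DNFB and 1548 in KO control ears, and 2531 in WT DNFB and 1522 in WT control ears, and rose in both (adjusted p = 0.000794 and 0.000163). Creld2 rose 1.54-fold in KO and 1.49-fold in WT ears (adjusted p = 0.00144 and 0.00249). With hybridization run as a block the counts were 5 in KO and 6 in WT ears, and the KO count was 7 without KO control array 1 or without KO DNFB array 3. It was also 7 with only the KO arrays in the fit. With the most variable probe set of each gene 7 rose in KO and 6 in WT ears, with medians of 0.32 and 0.33. The mean over probe sets gave 7 and 6 as well.

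Of 14 tested genes of ER translocation and signal peptide processing, 6 rose in KO ears, and 7 rose and 1 fell in WT ears. The shares of all genes tested were 21.2% higher in KO ears, and 19.0% higher and 24.0% lower in WT ears. Sec61b, a subunit of the protein-conducting channel, averaged 1222 in KO DNFB and 711 in KO control ears (1.72-fold, limma adjusted p = 0.000113), and 1086 in WT DNFB and 642 in WT control ears (1.69-fold, adjusted p = 0.000155). The count of this list that rose also changed with the processing. It was 1 in KO and 2 in WT ears with hybridization run as a block, 4 in each with mouse as a block, and 2, 4 and 3 in KO ears without KO control array 1, KO DNFB array 2 and KO DNFB array 3, and 4 in WT ears without WT control array 1 or without WT DNFB array 1. The median, 0.22 in KO and 0.25 in WT ears, became -0.09 and -0.16 when each gene was taken by its most variable probe set.

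Genes of ER-associated degradation, the process in which Herpud1 acts, are set beside all genes tested, of which 21.2% rose and 24.6% fell in KO ears and 19.0% rose and 24.0% fell in WT ears. Of 15 tested, 3 rose and 4 fell in KO ears, and 3 rose and 2 fell in WT ears, with medians of -0.13 and -0.01. After median centring of the arrays, 3 rose and 1 fell in KO ears, and 6 rose and 0 fell in WT ears (medians -0.06 and 0.13). With the mean over the probe sets of a gene, 0 rose and 4 fell in KO ears, and 1 rose and 2 fell in WT ears. Edem1, which marks misfolded glycoproteins for removal, averaged 381 in KO DNFB and 263 in KO control ears (1.44-fold, limma adjusted p = 0.00207), and 383 in WT DNFB and 219 in WT control ears (1.75-fold, adjusted p = 0.000179). Edem3 averaged 304 in KO DNFB and 404 in KO control ears, 1.33-fold lower (adjusted p = 0.00589). With hybridization run as a block, no gene of the list rose and 2 fell in KO ears, and 1 rose in WT ears. The number that fell was 1 to 3 in KO and at most 1 in WT ears when any single array was left out.

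Of 14 tested sensors and their regulators, 1 rose and 5 fell in each genotype. Beside them, 21.2% of all genes tested rose and 24.6% fell in KO ears, and 19.0% rose and 24.0% fell in WT ears. After median centring of the arrays, 4 fell in KO and 2 in WT ears. Ern1 (IRE1) had a log2 difference of -0.13 in KO and -0.08 in WT ears, and Atf6 had 0.27 and 0.04, and neither passed (adjusted p from 0.255 to 0.862). Eif2ak3 (PERK) averaged 204 in KO DNFB and 253 in KO control ears, and 182 in WT DNFB and 230 in WT control ears (limma adjusted p = 0.0437 and 0.0318), calls that held in 7 and 10 of 17 alternatives. The gene that rose was Eif2ak2, the interferon-induced eIF2alpha kinase PKR, 2.27-fold in KO and 2.36-fold in WT ears (adjusted p = 0.00157 and 0.0013). Creb3l1, an ATF6 relative, averaged 47.6 in KO DNFB and 112 in KO control ears, and 46.1 in WT DNFB and 88.8 in WT control ears (adjusted p = 0.000128 and 0.000651). The number that fell was 1 in KO and 2 in WT ears with hybridization run as a block, 3 in KO ears without KO control array 1 or KO DNFB array 1, 3 in WT ears without WT control array 1 or 2, and 2 without WT control array 3 or WT DNFB array 2.

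Of 19 tested targets of ATF4 and CHOP, 8 rose and 2 fell in each genotype, with medians of 0.36 in KO and 0.44 in WT ears. Beside these stand 21.2% of all genes that rose and 24.6% that fell in KO ears, and 19.0% and 24.0% in WT ears. The members that rose included amino acid transporters and one-carbon enzymes. Slc7a5 averaged 291 in KO DNFB and 77.2 in KO control ears (3.78-fold, limma adjusted p = 5.18e-05), and 229 in WT DNFB and 67.2 in WT control ears (3.35-fold, adjusted p = 0.000107). Shmt2 rose 2.86-fold in KO and 2.55-fold in WT ears (adjusted p = 9.85e-06 and 2.25e-05). Slc7a11, a cystine transporter, averaged 55.4 in KO DNFB and 9.78 in KO control ears, and ranged from 48.0 to 53.0 in WT DNFB and from 8.42 to 11.3 in WT control ears. It passed the filter on low values only through the DNFB ears, so it is given with no test, although it is among the 8 that rose. Without the filter 8 of 21 genes of the list rose in KO and 7 in WT ears.

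The 2 ATF4 and CHOP targets that fell were Nupr1, a stress-induced nuclear protein, and Vldlr, a lipoprotein receptor. Nupr1 averaged 484 in KO DNFB and 1058 in KO control ears, and 484 in WT DNFB and 1059 in WT control ears (limma adjusted p = 0.000178 and 0.000219). Vldlr averaged 191 in KO DNFB and 443 in KO control ears, and 214 in WT DNFB and 395 in WT control ears (adjusted p = 8.84e-06 and 6.61e-05). With hybridization run as a block 4 targets rose in KO and 5 in WT ears.

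The list of cytosolic heat shock genes, which answer to misfolding outside the ER, gave 5 higher and 3 lower of 9 in each genotype. The shares of all genes tested were 21.2% higher and 24.6% lower in KO, and 19.0% and 24.0% in WT ears. Hsp90aa1, Hspa8, Hsph1, Hspd1 and Hspe1 rose, and Hspa1a, Hspa1b and Hspb1 fell. Not all of the list is cytosolic. Hspd1 and Hspe1, the mitochondrial chaperonin pair in that list, rose 1.99-fold and 1.91-fold in KO and 1.87-fold and 1.81-fold in WT ears (limma adjusted p from 8.02e-05 to 0.000325). Hspa1a averaged 307 in KO DNFB and 639 in KO control ears, and 370 in WT DNFB and 613 in WT control ears, and fell in both (adjusted p = 0.000457 and 0.00482). Between the genotypes 0 of the 89 tested genes of the 6 lists passed limma's threshold in DNFB ears, in control ears or in the difference of the responses. Of all genes tested, 0.0672%, 0.149% and 0.00747% passed in these comparisons. At limma's unadjusted p below 0.05 there were 5, 10 and 4 of the 89. The share of all genes at that unadjusted p is not given here, so nothing is read from those counts.

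**Figure D4:**
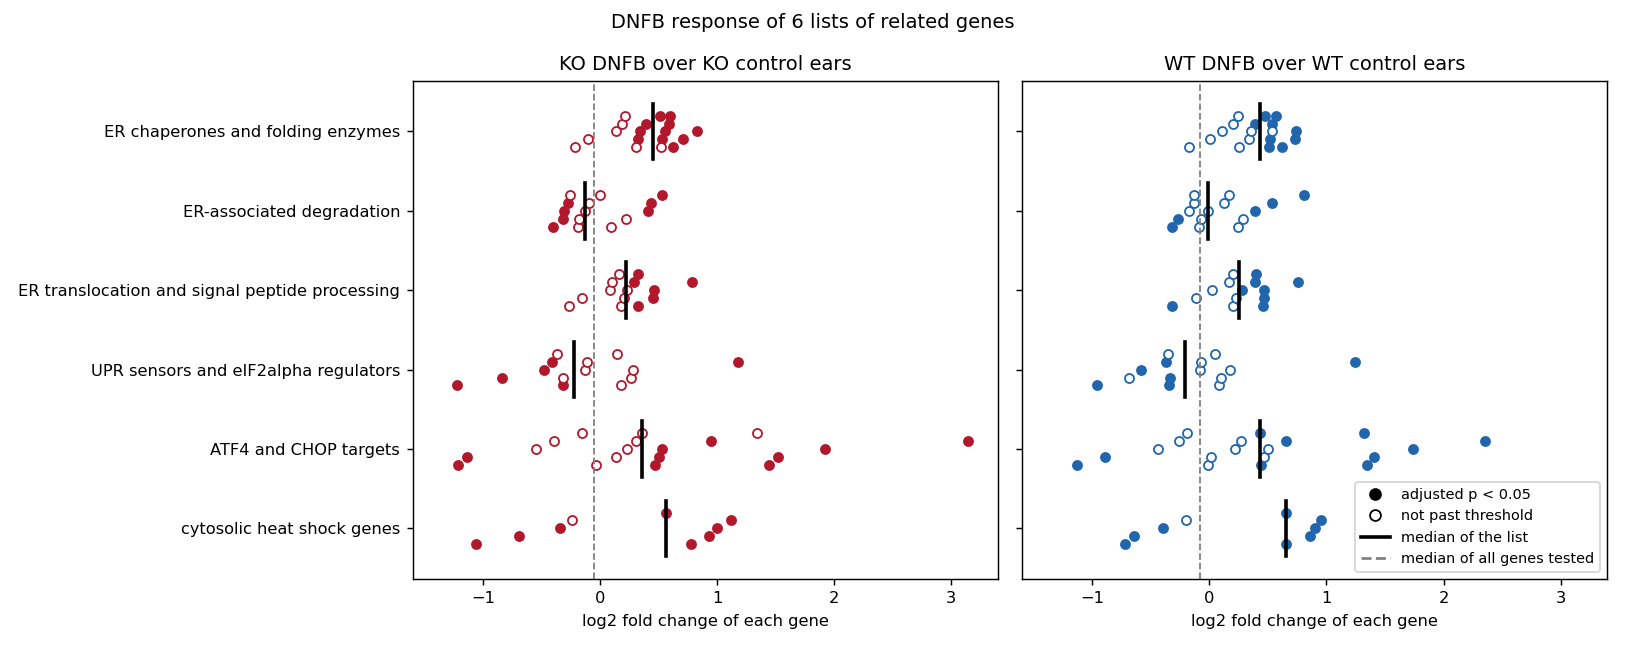
Log2 fold change of DNFB over control ears for each tested gene of the 6 lists (left KO, right WT), filled where adjusted p was below 0.05, with the list median as a bar and the median of all tested genes as a dashed line. Medians of the chaperone list are 0.45 and 0.43, and those of the sensor list are -0.22 and -0.21.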

How the data were processed

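The authors deposited one GCRMA intensity per probe set and array on a linear scale (GCRMA per the submitters' processing notes, version not given in the sources used here), and 12 instrument records that hold no expression values. Log2 values were taken from the deposited intensity with no pseudocount (lowest value 0.0197). A probe set was tested if it reached 16 in at least 3 arrays, which left 29460. One limma 3.58.1 model (lmFit and eBayes, R 4.3.3) of the 4 groups used all 12 arrays, with 5 contrasts, and Benjamini-Hochberg adjustment ran over all probe sets tested (threshold 0.05). Among a gene's tested probe sets with a single symbol, the brightest on average stands for it. Of the 45101 probe sets 34945 carry 1 symbol, 932 several and 9160 none, and 64 are Affymetrix controls. The fit was tested on simulated data. The number of arrays limits the precision.

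The named genes are all 10 members with every probe set, and for each other list up to 4 of the called genes with the largest change per comparison, beside Ern1, Eif2ak3, Atf6, Vldlr and Nupr1, named after their values were seen. The members and lists were chosen with earlier results of these data known. The labels pair ears within an animal, and after subtracting group means the paired arrays correlated at -0.00426 to 0.0797. Hybridization runs were inferred from instrument times with a gap of over 30 minutes between runs. Replicates are separate mice.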

Additional observations from a re-analysis of the deposited data

Results flagged for a closer look

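Ddit3 was noted because its DNFB response had opposite directions in every mouse of the 2 genotypes at probe set 1417516_at. In KO mice the DNFB ear minus the control ear was 0.14, 0.01 and 0.05 on the log2 scale (mean 0.0645), and in WT mice it was -0.02, -0.15 and -0.16 (mean -0.11). The second, dim probe set, 1443897_at, did not show this. It gave -1.08, 0.43 and 0.12 in KO and -0.03, 0.02 and -0.23 in WT mice, with both signs in each genotype. The opposite signs at 1417516_at were not tested, and the share of all genes with such a split is not given here. Limma's difference of the responses was 0.17 ± 0.174 (adjusted p = 0.918). The WT mean became 0.03 with arrays centred on their medians, and the KO mean became -0.02 without KO DNFB array 1. The groups of 3 arrays are too small for a check of single outlying arrays.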

How the results depend on the processing

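The number of the 10 genes past the threshold was 7 in each response. Over all alternatives, which were all planned, it was 5 to 7 in KO and 5 to 8 in WT ears. These counts are not all alike. A stricter filter, at 64 in 3 arrays, left Chac1 and Trib3 untested. With the most variable probe set the WT calls include rises of Xbp1 and Trib3. Leaving out one array at a time gave 6 to 7 in KO and 6 to 7 in WT ears, and 0 to 0 in the 3 genotype comparisons. Hsp90b1 and Sdf2l1 passed in both responses under every alternative, and Hspa5 did so in WT ears. Chac1 passed in both responses under each of the 16 alternatives in which it was tested. The DNFB responses that changed sign and passed the threshold on at least one side were those of WT ears with another choice of probe set, 0.5686 for Xbp1 and 0.531 for Trib3 with the most variable probe set and 0.01054 for Trib3 with the mean over its probe sets. Responses that passed on neither side also changed sign, in WT ears for Xbp1 (0.07) with the mean over probe sets, in WT ears for Xbp1 (0.03) and Ddit3 (0.03) and in KO ears for Dnajb9 (0.01) with arrays centred on their medians, in KO ears for Ddit3 with another choice of probe set (-0.18 and -0.06), and in KO ears for Ddit3 and Dnajb9 with single arrays left out (-0.02 for Ddit3, up to 0.09 for Dnajb9). With mouse as a fixed replicate block 6 genes passed in KO and 6 in WT ears, Hspa5 being lost in KO (0.35, adjusted p = 0.0627) and Trib3 in WT ears (-0.51, adjusted p = 0.0775), and no other call among the 10 genes changed with the pairing. With hybridization run as a block 5 passed in each, and since runs and groups overlap only in part, that fit compares few arrays. Over all genes the number called was 6123 in the KO and 5761 in the WT response, 9 between genotypes in DNFB ears, 20 in control ears and 1 in the difference of responses. With hybridization run as a block those numbers were 3278, 3063, 1, 1 and 0, the lowest of any alternative, and with trend and robust eBayes settings they were 6529, 6212, 53, 59 and 3, the highest. The cause of these changes was not tested. With 3 arrays a group a missed threshold does not show that groups were alike.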

Other observations

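The genes whose log2 values over the 12 arrays were most like those of a member, by the root mean square difference after subtracting each gene's mean, were as follows among 13382 other genes. For Atf4 they were Eif2s3x, Nars and Ufm1, at 0.0364, 0.0421 and 0.0476. For Hsp90b1 they were Uck2, Dkc1 and Capza1, and for Hspa5 Cnot9, Ctsl and Mrpl45, at 0.0752 to 0.0965. Xbp1 was most like Qdpr, Cd81 and Slc41a1 (0.0564 to 0.0664). Sdf2l1 was most like Vrk3, Eif4e2 and Otulinl (0.116 to 0.125), Herpud1 like Setmar, P3h4 and Fam83f (0.0938 to 0.117), and Trib3 like Podn, Bahd1 and Atxn2 (0.123 to 0.127). The closest gene to Chac1 was Ighm, the immunoglobulin heavy chain gene, at 0.135, ahead of Prim2 and H2az1. That distance was larger than the closest distance of any other member given here. Ighm is in the plasma and B cell marker list and averaged 303 in KO DNFB and 133 in KO control ears, and 231 in WT DNFB and 113 in WT control ears. The list did not move as a whole. Of its 7 tested genes 4 rose in KO and 3 in WT ears, and 1, Prdm1, fell in both. Among those that rose, Cd79b in both genotypes and Mzb1 in KO ears passed the filter only through the DNFB ears. Of all genes tested, 21.2% rose and 24.6% fell in KO ears, and 19.0% rose and 24.0% fell in WT ears. A link between Chac1 and these cells was not tested.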
